A study of Mus musculus with 24 samples.

Results

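Hippocampal RNA-seq libraries of Nanoligomer-treated and untreated mice of 2 models were set against each other to describe the part of the treatment difference that both models share. All treated libraries were compared with all untreated libraries, with the model kept as an additive block, so that each gene received 1 shared log2 fold change (treated minus untreated). The comparison took 15 of the 23 distinct libraries of the series. Of these, 8 came from treated mice, namely 4 from Old-Nano mice (F1, F2, M2 and M5) and 4 from rTg4510-Nano mice (F1, F2, M2 and M3), and 7 came from untreated mice, namely 4 from old mice (F2, F3, M1 and M3) and 3 from rTg4510 mice (F1, F3 and M2). The letter in each name is the sex of the mouse. Old and Old-Nano mice were wildtype C57/B6 animals of 20 months, and rTg4510 and rTg4510-Nano mice, which express a mutant human tau in the forebrain, were 3 months old, so that age, genotype and transgene differ between the models and are shared by the treated and untreated mice within each. Treated mice received the Nanoligomer cocktail at 150 mg/kg, 3 times a week for 1 month, and the untreated mice of the 1-month arm are named only as controls in the labels. The table of counts holds a further rTg4510 column (M3) that is identical to M2 for every gene, and it was left out, so n = 3 in that group. The mouse is taken as the unit of replication from the titles, and if libraries were not from separate mice the p-values measure technical spread only.

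Nanoligomers are antisense peptide nucleic acids attached to a gold nanoparticle, and this cocktail was designed against NF-κB and NLRP3. NF-κB is a family of transcription factors that are held in the cytoplasm by inhibitors such as IκBα (the product of Nfkbia) and that, once released, switch on genes for cytokines, chemokines and the inhibitors themselves. NLRP3 is the sensor of an inflammasome that activates caspase-1, which in turn matures interleukin 1β and interleukin 18 and cleaves gasdermin D, and in the brain both pathways are best known from microglia. Interferon-stimulated genes form a neighbouring response, driven by STAT and IRF factors that bind the interferon-stimulated response element, and several chemokine genes, Cxcl10 among them, carry sites for both.

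No gene differed between treated and untreated mice in the shared term once all genes were considered. Of 24411 genes in the table, 15383 passed a minimum of 10 for the mean normalized count and were tested with edgeR's quasi-likelihood test, and 0 passed a Benjamini-Hochberg adjusted p of 0.05 (0% of genes tested), the smallest adjusted p being 0.908. At an unadjusted p under 0.05 there were 787 genes (5.12% of those tested), with 289 higher (1.88%) and 498 lower (3.24%) in treated mice. By sign alone, 7659 of the 15383 genes were higher and 7724 lower in treated mice. DESeq2 also called 0 genes, with 867 at an unadjusted p under 0.05, but its smallest adjusted p was nearer the threshold, at 0.0636 (DESeq2 Wald test). The 787 genes became 447 without the library rTg4510 F3 and 1182 without old F2. In what follows no gene of the shared term is therefore described as changed, and the values and unadjusted p-values are descriptions read against these background shares.

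The shared differences were small for most genes, and the limits on them were tight. The median shared log2 fold change was -0.00078, with quartiles of -0.10 and 0.09, and the median standard error was 0.13. For 13443 genes (87.4% of those tested) the 95% interval of the shared term lay within a 2-fold difference either way, and for 10713 genes (69.6%) it lay within 1.5-fold. Only 298 genes had a shared log2 fold change beyond 1 in either direction, 82 above and 216 below, and 182 of them were genes whose level follows markers of choroid plexus or liver, as given next.

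Markers of tissues outside the hippocampus were unevenly present. Choroid plexus markers separated treated from untreated libraries in rTg4510 mice, and other lists were high in single libraries. Marker levels are given as the sum over a marker list of counts scaled to the normalized library size (CPM). The 26 choroid plexus markers summed to 273.8 to 445.3 CPM in Old-Nano libraries, against 312.5 to 464.7 in old libraries, and to 252.4 to 458.7 CPM in rTg4510-Nano libraries, against 7298 to 28675 in rTg4510 libraries. All 3 rTg4510 libraries were thus far above the other 12, whereas the groups overlapped in old mice. The 30 hepatocyte markers summed to 37.9 to 88.4 CPM in Old-Nano libraries, against 45.9 to 782.6 in old libraries, and to 42.6 to 256.8 CPM in rTg4510-Nano libraries, against 33.1 to 39.3 in rTg4510 libraries. The highest values were in old F3, the treated library rTg4510-Nano M2 and old F2, in that order, and Old-Nano libraries overlapped old ones. As mean log2 CPM over the list, rTg4510-Nano M2 was at -2.08, within the -2.55 to -1.82 of the other libraries of its model. Its high sum therefore does not reflect the list as a whole. Old F3 and F2 were at 3.80 and 1.73. Albumin (Alb) reached 65.4 and 371.0 CPM in old F2 and F3, and was at 0.00 to 0.19 CPM in all 7 libraries of the rTg4510 model. Striatum markers reached 2139 CPM in old M1, hypothalamus markers 443.4 CPM in rTg4510-Nano M2 and pituitary markers 1832 CPM in rTg4510-Nano M3. The tissue label, hippocampus, was checked against markers of its own cells, which were present in every library. CA pyramidal markers summed to 403.4 to 1621 CPM and dentate granule cell markers to 155.6 to 767.4 CPM across the 15 libraries. From such bulk samples fewer cells of a type and less RNA per cell cannot be told apart.

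**Figure D1:**
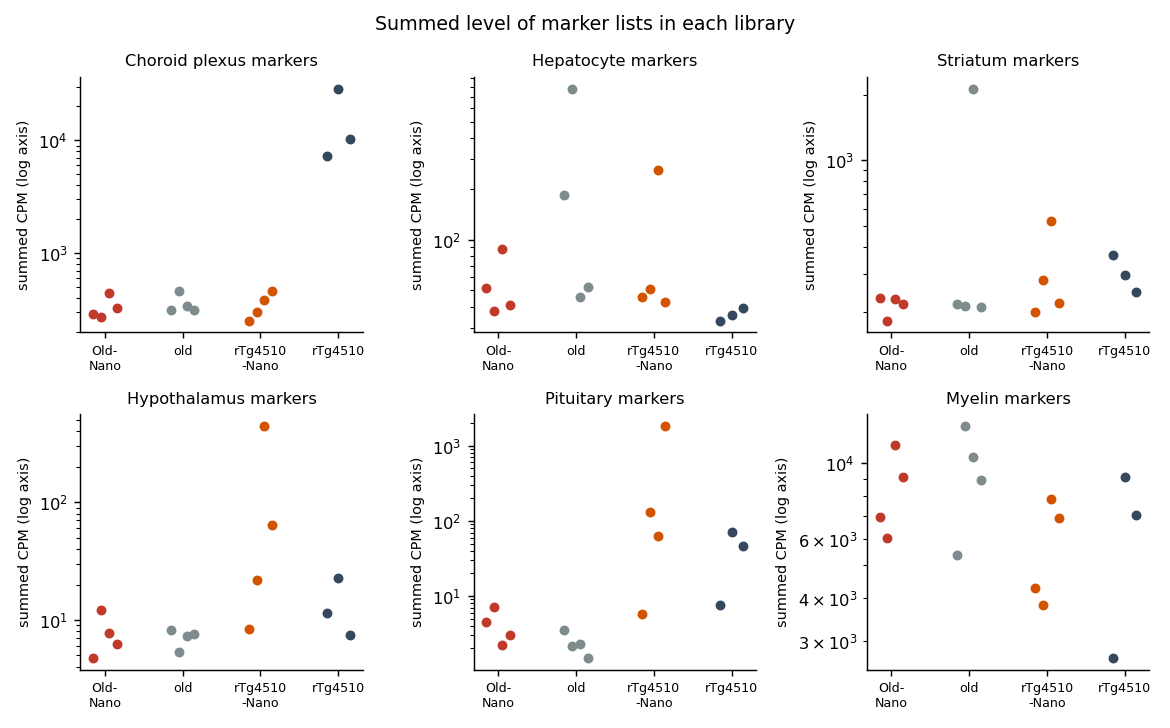
Summed CPM (log axis) of 6 marker lists in each of the 15 libraries, by group, with treated groups left of their untreated counterparts. Choroid plexus markers are between 7298 and 28675 CPM in the 3 rTg4510 libraries and at or under 464.7 CPM in the other 12, while hepatocyte, striatum, hypothalamus and pituitary markers are high in single libraries.

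To keep such genes in view, a gene is said to follow a tissue score where its log2 CPM correlates at r over 0.8 with the mean log2 CPM of the choroid plexus or the hepatocyte markers within either model. This held for 1297 of the genes tested, and for 362 of the 787 genes at an unadjusted p under 0.05, against 425 that do not follow a score. In rTg4510 mice the choroid plexus score was 5.12 to 6.89 in untreated libraries and 0.28 to 1.84 in treated ones. A gene much lower in treated rTg4510 mice therefore follows that score nearly by construction, and its following is no separate evidence. Whether the markers account for any of these differences was not tested.

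The genes that the cocktail was designed against were measured in every library and did not differ by more than their spread. Nfkb1 (chromosome 3, 135584655 to 135691547, minus strand, GRCm38), which encodes the p105 precursor and p50 subunit of NF-κB, had 18.9, 20.1, 25.3 and 22.8 CPM in Old-Nano libraries, against 19.3, 22.7, 15.6 and 21.4 in old libraries, and 21.7, 17.8, 22.2 and 19.9 CPM in rTg4510-Nano libraries, against 14.5, 25.4 and 22.8 in rTg4510 libraries. Its groups overlapped in both models, and its shared log2 fold change was 0.06 ± 0.12 (standard error, as for all shared values below), with a 95% interval of -0.20 to 0.32. Rela (chromosome 19, 5637483 to 5648130, plus strand), the transactivating p65 subunit, had a shared log2 fold change of -0.02 ± 0.10 (-0.24 to 0.20). For both subunits a difference as large as 1.5-fold is outside the interval.

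Nlrp3 (chromosome 11, 59541568 to 59566956, plus strand) was measured from few reads. Its level was 1.09, 2.28, 1.96 and 1.24 CPM in Old-Nano libraries, against 1.99, 1.61, 0.741 and 0.901 in old libraries, and 1.67, 1.42, 1.27 and 1.54 CPM in rTg4510-Nano libraries, against 2.12, 0.952 and 1.33 in rTg4510 libraries. The groups overlapped, and the shared log2 fold change was 0.18 ± 0.26, with an interval of -0.38 to 0.73 that excludes a 2-fold difference but not a 1.5-fold one.

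The rest of these pathways was as near to 0. Of 29 NF-κB subunits and regulators, all tested, 0 were at an unadjusted p under 0.05 in either direction, and their median shared log2 fold change was -0.02 (0.03 in old mice, -0.04 in rTg4510 mice), against -0.00078 over all genes tested. Nfkbia, the feedback inhibitor IκBα, had a shared log2 fold change of 0.01 ± 0.11, and Tnfaip3, the feedback deubiquitinase A20, one of 0.18 ± 0.16. Of 21 NLRP3 inflammasome genes 16 were tested, again with 0 at an unadjusted p under 0.05 and a median of -0.01. Casp1, the protease of the inflammasome, was at 0.04 ± 0.34, its adaptor Pycard at 0.00 ± 0.22 and its substrate Il18 at -0.13 ± 0.07 (unadjusted p = 0.0861, edgeR). Among the Toll-like receptors and their adaptors, which act upstream of NF-κB, 17 of 19 were tested and 0 were at an unadjusted p under 0.05, with a median of 0.01.

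**Figure D2:**
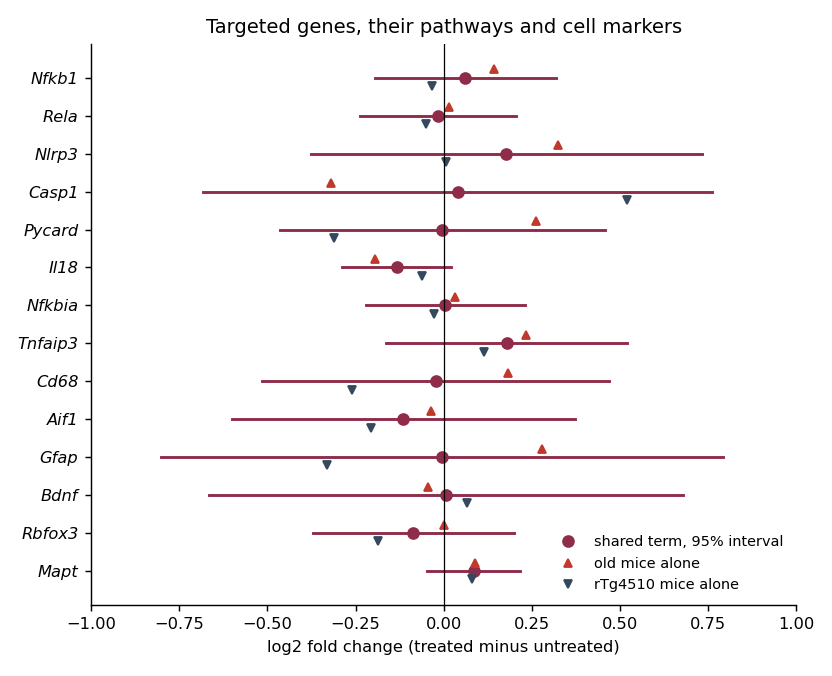
Shared log2 fold change (treated minus untreated) with its 95% interval for 14 genes of the targeted pathways, glia and neurons, and the values in old mice and in rTg4510 mice alone (triangles). Every interval includes 0, and the widest, that of Gfap, runs from -0.80 to 0.79.

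Known target genes of NF-κB leaned upward without a call. Of 30 such genes 21 were tested, 16 of them with a positive shared log2 fold change and 11 positive in both models, and the median was 0.14 (0.12 in old mice, 0.08 in rTg4510 mice). At an unadjusted p under 0.05 there were 2 higher (Cxcl10 and Mmp9) and 0 lower, against 1.88% and 3.24% of all genes tested. By sign, 7659 of all 15383 genes tested were positive, and 54.8% had the same sign in both models, in either direction. Without the library Old-Nano M2 the median of the list was 0.04. Mmp9, a matrix metalloproteinase, had 3.15, 2.80, 1.70 and 2.44 CPM in Old-Nano libraries, against 2.03, 1.66, 1.66 and 1.29 in old libraries, and 1.39, 2.98, 2.44 and 2.70 CPM in rTg4510-Nano libraries, against 1.35, 1.69 and 1.64 in rTg4510 libraries. In each model 1 treated library lay within the untreated range, and the shared log2 fold change was 0.60 ± 0.19 (unadjusted p = 0.00626, edgeR).

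Most classical cytokines were below the count filter. Of 35 cytokines on the list of a multiplex panel 9 were tested. Tnf, Il1b and Il6 stayed at or under 0.67 CPM in every library, and Ccl2, a monocyte chemoattractant, was at or under 0.45 CPM except in Old-Nano M2, where it was 2.59 CPM.

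Cxcl10, an interferon- and NF-κB-inducible chemokine that draws T cells (chromosome 5, 92346638 to 92348889, minus strand), had the largest positive shared value among the immune genes described here. It had 0.462, 0.961, 3.92 and 1.46 CPM in Old-Nano libraries, against 0.677, 0.855, 0.218 and 0.627 in old libraries. In rTg4510-Nano libraries it had 0.278, 0.551, 0.188 and 0.901 CPM, against 0.116, 0.0433 and 0.221 in rTg4510 libraries. In each model 3 of 4 treated libraries were above all untreated ones, and 1 was not. The shared log2 fold change was 1.65 ± 0.50 (95% interval 0.57 to 2.73, unadjusted p = 0.00532, adjusted p 0.908, edgeR), with 1.52 in old mice and 1.90 in rTg4510 mice. Without Old-Nano M2 it was 1.18. Its level follows a tissue score.

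Other interferon-stimulated genes had the same direction. Of 28 on the list 27 were tested, 22 had a positive shared log2 fold change and 16 were positive in both models, and the median was 0.19 (0.29 in old mice, 0.12 in rTg4510 mice). That median was 0.088 without Old-Nano M2 and 0.10 without old M1, and 0.31 without rTg4510 F3. At an unadjusted p under 0.05 there were 4 higher, namely Cxcl10, Oasl2, Gbp2 and Gbp3, and 0 lower, against 1.88% and 3.24% of all genes tested. Of the 27, 5 follow a tissue score. The count of 4 was 2 without old F2, old M1, old M3, Old-Nano M2, rTg4510 F1 or rTg4510-Nano M3, 7 without Old-Nano M5 and 8 without old F3, and without Old-Nano M2 there were also 3 lower. With the 2 tissue scores as covariates it was 13, and the median was 0.68. That fit had 900 genes below the same threshold in either direction, against 787 without covariates. Choroid plexus scores of treated and untreated rTg4510 libraries do not overlap, so the fit can hardly tell treatment from score in that model. No conclusion on interferon-stimulated genes is therefore drawn from the 13. Border macrophage markers, which can carry such genes, were higher in treated libraries by sign for all 8 of 8 in the shared term, but only 2 were higher in both models. Their median shared log2 fold change was 0.23, and 0.040 without Old-Nano M2. Their summed levels were 7.47 to 17.8 CPM in Old-Nano libraries, against 3.53 to 16.95 in old libraries. In rTg4510-Nano libraries they were 10.8 to 21.3 CPM, against 10.2 to 16.7 in rTg4510 libraries. The part of these markers in the result was not tested.

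Oasl2, an antiviral protein of the 2′-5′-oligoadenylate synthetase family, had 6.51, 7.60, 18.1 and 6.76 CPM in Old-Nano libraries, against 4.26, 8.55, 4.23 and 5.56 in old libraries, and 4.37, 5.64, 5.45 and 6.04 CPM in rTg4510-Nano libraries, against 3.93, 4.46 and 2.57 in rTg4510 libraries. Its shared log2 fold change was 0.68 ± 0.24 (unadjusted p = 0.013, edgeR). Gbp2 and Gbp3, interferon-induced GTPases that act on intracellular pathogens, were at 0.60 ± 0.27 and 0.40 ± 0.18. Old-Nano M2 was the highest of the 15 libraries for all 4 genes, including Cxcl10. Gbp4, a further GTPase of that family, was among the 10 higher genes with the smallest p, with 1.96 to 7.21 CPM in Old-Nano libraries, against 1.35 to 2.71 in old libraries, and 1.67 to 3.53 CPM in rTg4510-Nano libraries, against 1.08 to 1.95 in rTg4510 libraries (shared log2 fold change 1.03 ± 0.32, unadjusted p = 0.00557, edgeR).

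Promoter sequence shows which of these genes carry the letters that NF-κB and interferon factors are known to read. The 250 bases before the start of 4 genes are given 5′ to 3′ on the gene's own strand (RefSeq, GRCm38.p6), with matches on either strand to the κB consensus and to the core of the interferon-stimulated response element (GAAA, 2 bases of any kind, GAAA) in capitals. Cxcl10 is shown because it has both kinds of match, Gbp2 and Gbp3 because they have the interferon element only, and Nfkbia because it has a κB match and a shared log2 fold change of 0.01. For Gbp3 a window was kept only if it held the interferon element, so that match was chosen.
Cxcl10, chr5:92348890-92349139, minus strand: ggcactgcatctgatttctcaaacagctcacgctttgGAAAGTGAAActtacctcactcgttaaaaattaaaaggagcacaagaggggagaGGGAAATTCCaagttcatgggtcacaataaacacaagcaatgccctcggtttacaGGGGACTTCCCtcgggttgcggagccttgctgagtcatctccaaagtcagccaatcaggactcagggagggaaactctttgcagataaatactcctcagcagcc
Gbp2, chr3:142620413-142620662, plus strand: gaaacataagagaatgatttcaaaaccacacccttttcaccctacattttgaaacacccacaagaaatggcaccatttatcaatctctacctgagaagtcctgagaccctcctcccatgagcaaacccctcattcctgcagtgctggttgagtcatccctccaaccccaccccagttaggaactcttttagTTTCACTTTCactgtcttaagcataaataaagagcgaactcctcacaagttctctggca
Gbp3, chr3:142559794-142560043, plus strand: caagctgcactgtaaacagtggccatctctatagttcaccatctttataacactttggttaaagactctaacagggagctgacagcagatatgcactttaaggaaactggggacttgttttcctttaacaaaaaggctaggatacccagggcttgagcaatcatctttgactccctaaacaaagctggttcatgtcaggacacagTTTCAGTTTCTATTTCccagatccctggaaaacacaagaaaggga
Nfkbia, chr12:55492648-55492897, minus strand: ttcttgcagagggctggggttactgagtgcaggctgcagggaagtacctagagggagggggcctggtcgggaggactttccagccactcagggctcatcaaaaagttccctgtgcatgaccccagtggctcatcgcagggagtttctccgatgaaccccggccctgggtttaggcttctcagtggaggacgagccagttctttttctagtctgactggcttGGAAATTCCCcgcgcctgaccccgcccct
In Cxcl10 the interferon element begins 213 bases before the start and the 2 κB stretches begin 159 and 104 bases before it. In Gbp2 the interferon element begins 59 bases before the start, in Gbp3 a stretch of 2 overlapping matches begins 45 bases before it, and in Nfkbia the κB match begins 29 bases before it.

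Matches of this kind also occur outside the lists, at lower shares. Over all 27025 genes with such a window, 8.23% held a κB match and 3.46% the interferon element. Among the 11606 genes tested that have a window, the shares were 10.9% and 3.1%. Of the 22 interferon-stimulated genes with a window 12 held the interferon element (54.5%) and 4 a κB match (18.2%). Of the 16 NF-κB targets with a window 9 held a κB match (56.2%) and 1 the interferon element. A match describes the letters only.

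Genes with the same direction at an unadjusted p under 0.05 in each model taken alone were few. The 2 models share no library, and 16 genes (0.104% of those tested) met this in the same direction, 6 higher (0.039%) and 10 lower (0.065%) in treated mice, against 1 gene (0.0065%) in opposite directions (Ccdc125, a coiled-coil protein, named after its values were seen). In single models, 1.44% of genes tested were at such a p in old mice and 7.25% in rTg4510 mice. If the models were unrelated, those shares alone would give about as many genes in both, directions pooled. That number stands beside the 16 and the 1 together, not beside the 16 alone. The split between directions was not tested. Of the 16, 10 follow a tissue score. The count of 16 was 29 without old F2, 27 without Old-Nano M2, 10 without Old-Nano F2, 9 without old F3 and 7 without Old-Nano F1. The 6 higher ones were Tfrc, Cd274, Cxcl10, Dusp2, Frmpd3 and 2310057M21Rik, and the 10 lower ones were Dpp7, Emp2, Rn45s, Lims2, Slc9a3r1, Trappc6a, Ddah2, Ppp1r1b, Sh3rf2 and Bhmt.

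Tfrc, the transferrin receptor through which cells take up iron (chromosome 16, 32608920 to 32632794, plus strand), had 72.8, 66.0, 78.3 and 68.9 CPM in Old-Nano libraries, against 62.5, 58.8, 52.6 and 63.0 in old libraries. In rTg4510-Nano libraries it had 76.8, 51.4, 67.6 and 63.6 CPM, against 44.9, 50.8 and 58.8 in rTg4510 libraries. Treated libraries were above all untreated ones in old mice, and 3 of 4 were in rTg4510 mice. The shared log2 fold change was 0.30 ± 0.09 (0.12 to 0.48, unadjusted p = 0.00321, edgeR), with 0.27 in old mice and 0.33 in rTg4510 mice, and Tfrc does not follow a tissue score. Of 18 iron-handling genes 17 were tested, and at an unadjusted p under 0.05 Tfrc was the 1 higher and 2 were lower. These were Hamp, which encodes the liver hormone hepcidin (0.00 to 0.67 CPM in Old-Nano libraries, against 0.12 to 6.03 in old libraries), and Hpx, which encodes the plasma protein hemopexin (shared log2 fold change -1.80 ± 0.69).

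Cd274, which encodes the immune checkpoint ligand PD-L1 (chromosome 19, 29367455 to 29388095, plus strand), had 4.03, 4.16, 6.84 and 3.30 CPM in Old-Nano libraries, against 2.91, 3.47, 2.88 and 2.82 in old libraries, and 2.94, 3.40, 5.77 and 5.10 CPM in rTg4510-Nano libraries, against 2.20, 3.16 and 3.05 in rTg4510 libraries. In each model 3 of 4 treated libraries exceeded all untreated ones. The shared log2 fold change was 0.61 ± 0.19 (unadjusted p = 0.00521, edgeR), with 0.60 in old mice and 0.62 in rTg4510 mice. Dusp2, a nuclear phosphatase that switches off MAP kinases (chromosome 2, 127336159 to 127338376, plus strand), had 0.720 to 1.13 CPM in Old-Nano libraries, against 0.517 to 0.741 in old libraries, and 0.596 to 0.986 CPM in rTg4510-Nano libraries, against 0.303 to 0.539 in rTg4510 libraries. Its shared log2 fold change was 0.75 ± 0.21, with 0.63 in old mice and 0.90 in rTg4510 mice. Frmpd3, a FERM and PDZ domain protein on the X chromosome, was at 0.48 ± 0.13.

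Complete separation of treated from untreated libraries in both models was rarer still. Treated libraries lay above untreated ones in both models for 2 genes (0.013%) and below for 2 (0.013%), and 3 genes (0.0195%) were separated in opposite directions (Tpmt, Mob1b and Ntf5, named after their values were seen). Within single models, 109 genes (0.709%) were separated in old mice and 1061 (6.9%) in rTg4510 mice, where 4 libraries face 3. The genes above in both models were the uncharacterised protein-coding gene 2310057M21Rik (chromosome 7, 131338220 to 131362759, minus strand) and the noncoding transcript A830082N09Rik (chromosome 10, 33987216 to 33995055, minus strand). For 2310057M21Rik, Old-Nano libraries had 16.4 to 19.7 CPM, against 12.96 to 15.8 in old libraries, and rTg4510-Nano libraries 14.9 to 16.2 CPM, against 11.8 to 14.1 in rTg4510 libraries. The gap between the groups was narrow, at under 1 CPM in old mice, and the shared log2 fold change was 0.23 ± 0.07. A830082N09Rik had 25.004 to 28.01 CPM in Old-Nano libraries, against 21.2 to 24.9945 in old libraries, a gap of almost 0, and 24.95 to 40.0 CPM in rTg4510-Nano libraries, against 19.3 to 24.4 in rTg4510 libraries, with a shared log2 fold change of 0.35 ± 0.10.

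Dpp7, a dipeptidyl peptidase of lysosomes and vesicles (chromosome 2, 25352276 to 25356359, minus strand), was below in both models. It had 16.8, 15.3, 16.8 and 17.4 CPM in Old-Nano libraries, against 19.9, 21.99, 17.997 and 19.9 in old libraries, and 16.3, 18.2, 14.7 and 12.6 CPM in rTg4510-Nano libraries, against 20.5, 25.8 and 20.9 in rTg4510 libraries. The shared log2 fold change was -0.39 ± 0.09 (-0.58 to -0.20, unadjusted p = 0.000579, edgeR), with -0.27 in old mice and -0.54 in rTg4510 mice. Its level follows a tissue score, and the part of the markers in the difference was not tested. The other such gene was Ndufa3, a subunit of respiratory complex I (named after its values were seen), with 50.4 to 53.9 CPM in Old-Nano libraries, against 56.6 to 73.7 in old libraries, and 42.3 to 45.0 CPM in rTg4510-Nano libraries, against 46.2 to 50.5 in rTg4510 libraries (shared log2 fold change -0.20 ± 0.06).

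**Figure D3:**
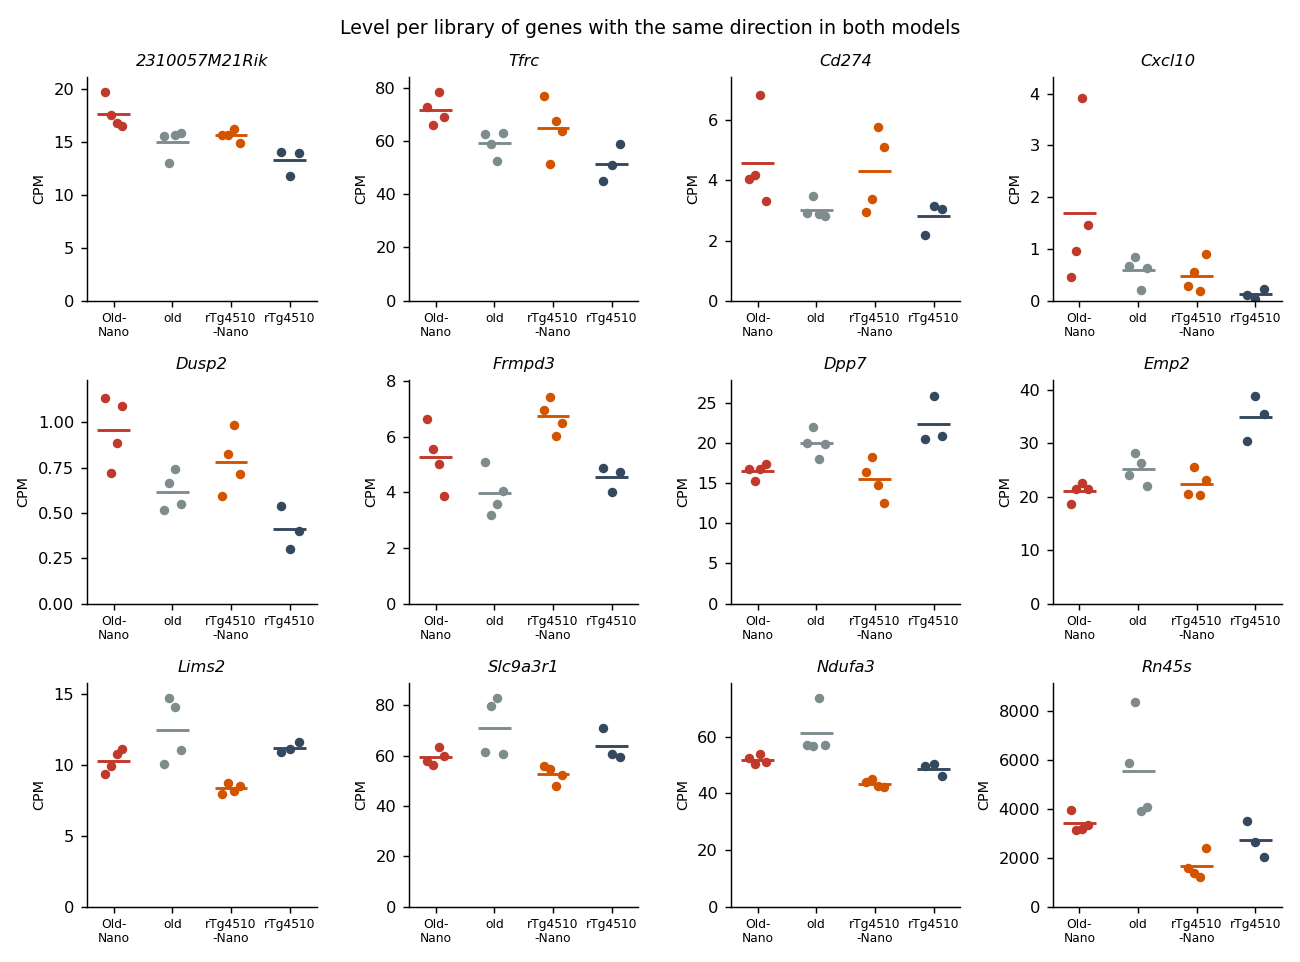
CPM per library (points) and group mean (line) of 12 genes with the same direction in both models, with treated groups left of their untreated counterparts. For 2310057M21Rik, Dpp7 and Ndufa3 treated and untreated libraries do not overlap in either model, and for Cxcl10 3 of 4 treated libraries per model lie above all untreated ones.

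Among the lower genes, Emp2, a tetraspan epithelial membrane protein (chromosome 16, 10281749 to 10313968, minus strand), had the smallest p of those lower in each model alone. It had 18.6 to 22.6 CPM in Old-Nano libraries, against 22.1 to 28.3 in old libraries, and 20.3 to 25.6 CPM in rTg4510-Nano libraries, against 30.4 to 38.9 in rTg4510 libraries. The shared log2 fold change was -0.43 ± 0.09, with -0.26 in old mice and -0.64 in rTg4510 mice, where it passed the test (adjusted p = 0.0217, edgeR). Emp2 follows a tissue score, and the rTg4510 libraries with its highest levels are the 3 with choroid plexus markers. Slc9a3r1, which encodes the membrane scaffold NHERF1 and does not follow a score, was at -0.27 ± 0.08, with -0.26 in old mice and -0.27 in rTg4510 mice. Lims2, Trappc6a and Ddah2, which act in cell adhesion, vesicle transport and arginine metabolism and all follow a score, had shared log2 fold changes of -0.35, -0.50 and -0.58.

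Some of the larger shared values rested in old mice on 1 or 2 libraries, while the rTg4510 groups did not overlap. Ppp1r1b, which encodes DARPP-32 of striatal projection neurons, had 30.9 to 51.9 CPM in Old-Nano libraries, against 35.8, 45.4, 407.1 and 44.1 in old libraries, where the high value is old M1, the library with the most striatum markers, and 25.4 to 41.6 CPM in rTg4510-Nano libraries, against 80.2 to 125 in rTg4510 libraries. Without old M1 its shared log2 fold change of -1.60 was -0.79. Sh3rf2 was likewise at 12.5 CPM in old M1 and at or under 0.24 CPM in the other 3 old libraries, and without old M1 its value of -3.60 was -1.97. In the rTg4510 model it had 0.09 to 0.47 CPM in rTg4510-Nano libraries, against 2.27 to 6.92 in rTg4510 libraries. Bhmt, a methyltransferase of liver, was at 0.00 to 0.41 CPM in Old-Nano libraries, against 0.09 to 13.1 in old libraries, with the highest levels in old F2 and F3, the old libraries with the most hepatocyte markers. In the rTg4510 model it was at 0.00 to 0.19 CPM in rTg4510-Nano libraries, against 0.42 to 2.60 in rTg4510 libraries, and its shared log2 fold change of -4.62 was -3.50 without old F3 and -5.23 without Old-Nano M2.

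Rn45s, the 45S precursor of ribosomal RNA that poly(A) selection largely removes, was lower in both models by a like amount. It had 3949, 3115, 3170.2 and 3327 CPM in Old-Nano libraries, against 5842, 8333, 3916 and 4049 in old libraries, and 1590.1, 1358, 1192 and 2406 CPM in rTg4510-Nano libraries, against 3476, 2646 and 2025 in rTg4510 libraries. Its shared log2 fold change was -0.72 ± 0.19 (unadjusted p = 0.00184, edgeR), with -0.71 in old mice and -0.73 in rTg4510 mice. It took 0.129% to 0.854% of the counts of a library. Its level follows a tissue score. Treated libraries overlapped untreated ones in both models, through Old-Nano F1 in old mice and rTg4510-Nano M3 in rTg4510 mice.

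Of the genes with the smallest p in the shared term, the 10 lower ones all follow a tissue score, whereas most of the 10 higher ones do not. Among the 10 lower ones were Tmprss11a, Kcne2, Aqp1 and Ackr4, all of which follow a tissue score and were high in the rTg4510 libraries alone. Kcne2, a potassium channel subunit of choroid plexus epithelium, had 0.148 to 0.378 CPM in Old-Nano libraries, against 0.087 to 0.427 in old libraries, and 0.238 to 0.826 CPM in rTg4510-Nano libraries, against 42.5, 130.1 and 43.0 in rTg4510 libraries. Its shared log2 fold change of -5.45 ± 1.09 therefore combines -0.11 in old mice and -7.14 in rTg4510 mice. The combined value is the coefficient of the additive fit and not the simple mean of the models. Aqp1, the water channel of that epithelium, was at -1.25 in old mice and -6.74 in rTg4510 mice. A1bg, a plasma glycoprotein, was at 2.67 and 4.08 CPM in old F2 and F3 and at or under 0.18 CPM in the other 13 libraries. Also among these 10 were Dct, an enzyme of melanin synthesis (-1.57 ± 0.38), and Acnat1, an acyltransferase (-2.34 ± 0.57). Among the 10 higher genes, F8, which encodes coagulation factor VIII, was at 2.48 to 3.11 CPM in Old-Nano libraries, against 1.71 to 2.19 in old libraries, and at 2.75 to 3.60 CPM in rTg4510-Nano libraries, against 2.30 to 2.86 in rTg4510 libraries (0.43 ± 0.12).

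Whether the treatment difference was the same in both models was then tested directly. The interaction of treatment and model, (rTg4510-Nano minus rTg4510) minus (Old-Nano minus old), passed the adjusted threshold for 22 genes (0.143% of those tested), all below 0, with log2 differences of -8.57 to -2.01. At an unadjusted p under 0.05 there were 621 genes (4.04%). All 22 follow a tissue score, which so large a fall in rTg4510 mice makes nearly certain, and 11 are on the choroid plexus list. Their log2 fold change was -8.31 to -1.95 in rTg4510 mice and -0.42 to 0.79 in old mice. The 5 with the smallest p were Trpv4, a calcium-permeable cation channel (-4.82), F5, coagulation factor V (-6.42), Ltc4s, the leukotriene C4 synthase (-3.30), Enpp2, the lysophospholipase autotaxin (-4.32), and Kcne2 (-7.03). Their adjusted p was 0.0113 to 0.0131 (edgeR). Enpp2 had 160 to 271 CPM in Old-Nano libraries, against 169 to 333 in old libraries, and 134 to 257 CPM in rTg4510-Nano libraries, against 2153, 8095 and 2900.4 in rTg4510 libraries.

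The count of interaction genes moved with single libraries. It was 54 without rTg4510 F1, 12 without rTg4510-Nano M2, 10 without old M1, 8 without old F2 or old M3, 7 without rTg4510-Nano F1, 6 without Old-Nano M5 or rTg4510-Nano F2 and 5 without old F3 or Old-Nano M2. DESeq2 called 84 genes, all below 0 and all following a tissue score, with the same limit. Within models, 0 genes were called in old mice (222 at an unadjusted p under 0.05, 1.44%), and 113 were called in rTg4510 mice, all lower (0.735%, with 1116 or 7.25% at an unadjusted p under 0.05).

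Across genes, the differences of the 2 models were almost unrelated. Over the 15383 genes the log2 fold changes correlated at Pearson r = -0.02 and Spearman rho = 0.08, and 8436 genes (54.8%) had the same sign. Leaving out 1 library moved rho between -0.03 (without Old-Nano F2) and 0.17 (without Old-Nano M2). These are descriptions across genes, which are not independent replicates, and the 2 contrasts share no library but share the spread estimate. Without the 1297 genes that follow a tissue score, r was -0.04, rho was 0.10 and 55.3% of the 14086 genes left had the same sign.

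**Figure D4:**
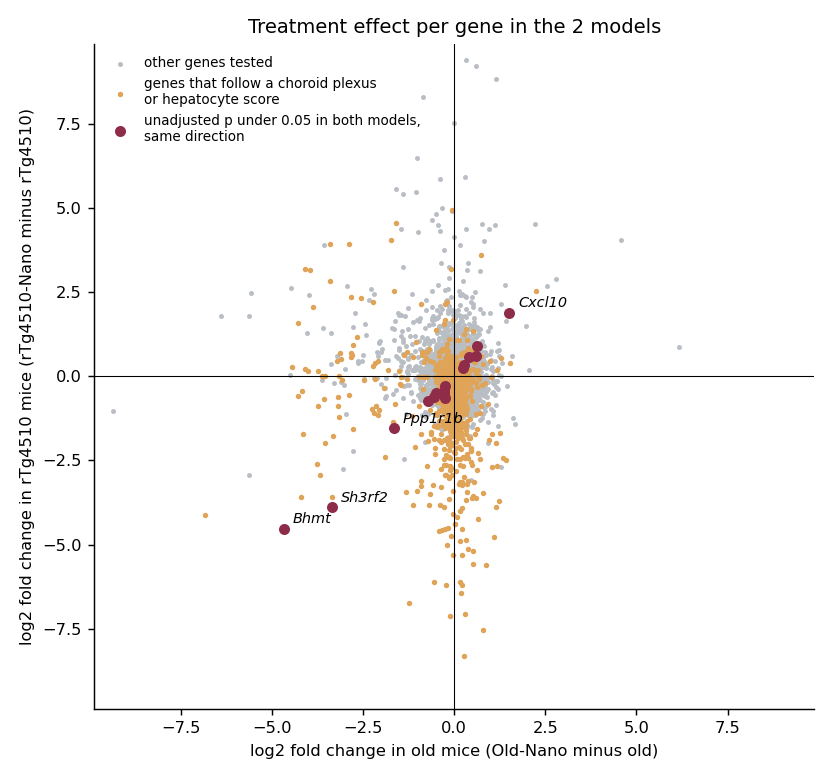
Log2 fold change of each of the 15383 genes in old mice (horizontal axis, Old-Nano minus old) and in rTg4510 mice (vertical axis, rTg4510-Nano minus rTg4510). Many of the 1297 genes that follow a choroid plexus or hepatocyte score lie far below 0 in rTg4510 mice or far left of 0 in old mice, and the 16 genes at an unadjusted p under 0.05 in the same direction in both models lie at the upper right and the lower left.

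No glial gene passed the test in the shared term, and few were at a low unadjusted p. Of 25 genes of disease-associated microglia, the state that microglia take on near amyloid and degenerating neurons, 0 were higher and 1 was lower at an unadjusted p under 0.05, with a median shared log2 fold change of -0.02 (0.16 in old mice, -0.14 in rTg4510 mice). The 1 gene was Cd63, a lysosomal tetraspanin (-0.35 ± 0.15), which follows a tissue score. Of 15 genes of homeostatic microglia 0 were at an unadjusted p under 0.05 (median -0.05), and P2ry12, their purinergic receptor, was at -0.10 ± 0.16. Cd68, a lysosomal protein of phagocytes, had 11.6 to 27.6 CPM in Old-Nano libraries, against 12.6 to 19.7 in old libraries, and 6.81 to 17.1 CPM in rTg4510-Nano libraries, against 10.3 to 18.9 in rTg4510 libraries, and its shared log2 fold change was -0.02 ± 0.23. Aif1, which encodes the microglial protein IBA1, was at -0.12 ± 0.23.

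Gfap, the intermediate filament of astrocytes, varied several-fold within every group. It had 216.0, 680.0, 1224 and 754 CPM in Old-Nano libraries, against 532, 746, 276 and 813 in old libraries, and 955, 490.3, 309 and 672 CPM in rTg4510-Nano libraries, against 324, 871 and 1093 in rTg4510 libraries. The groups overlapped throughout, and the shared log2 fold change of 0.00 ± 0.37 had a 95% interval of -0.80 to 0.79, which leaves a difference of 1.5-fold either way within it. Of 24 reactive astrocyte genes 0 were higher and 1 was lower at an unadjusted p under 0.05 (Hspb1, a small heat shock protein, -0.41 ± 0.15), and the median was 0.09 (0.25 in old mice, -0.05 in rTg4510 mice).

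Complement genes, whose products tag synapses and debris for removal, counted 4 lower and 0 higher of 24 at an unadjusted p under 0.05, with a median of -0.00063. Over all genes tested, 3.24% were lower and 1.88% higher at that threshold. The 4 were Cd59a and Cd55, membrane inhibitors of complement (-0.96 ± 0.34 and -0.57 ± 0.26), Cfi, a plasma protease of liver (-2.32 ± 1.01), and Clu, a secreted chaperone (-0.28 ± 0.12). Of the 24 genes 13 follow a tissue score, and the count of 4 was 0 without rTg4510 F3, 1 without Old-Nano F1, rTg4510-Nano F1 or rTg4510-Nano F2, and 2 without old F2, old F3, Old-Nano F2, rTg4510 M2, rTg4510-Nano M2 or rTg4510-Nano M3. Clu had 966 to 1173 CPM in rTg4510-Nano libraries, against 1275, 1863 and 1593 in rTg4510 libraries, whereas it had 1016 to 1484 CPM in Old-Nano libraries, against 1068 to 1529 in old libraries.

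Neuronal lists differed in direction, by small amounts. Medians were negative for markers of dentate granule cells (-0.13, 8 of 12 negative), neurogenesis genes (-0.16, 9 of 15 tested negative) and markers of CA pyramidal cells (-0.03, 6 of 12 negative), and positive for the receptor and release lists. GABA receptor genes, which mediate fast and slow inhibition, had a median shared log2 fold change of 0.15, with 15 of 16 positive and 10 positive in both models. By comparison, 7659 of all 15383 genes tested were positive. Genes of synaptic vesicles and release had a median of 0.12, with 17 of 30 positive in both models, and glutamate receptor genes one of 0.08, with 10 of 28 positive in both. Without old F3 these medians were 0.060 and 0.041. In these 3 lists together 0 genes were higher at an unadjusted p under 0.05, and 1 was lower (Grin2c, an NMDA receptor subunit, -0.25 ± 0.11). Among calcium, sodium and HCN channels 2 of 30 were higher, namely the sodium channel genes Scn1a (0.49 ± 0.22) and Scn2a1 (0.24 ± 0.11), and 0 were lower. Among acetylcholine receptor genes 1 of 15 was higher, Chrnb2, the main β subunit of neuronal nicotinic receptors (0.34 ± 0.12), and 2 were lower. Immediate early genes, which report recent neuronal activity, had a median of -0.01 with 0 of 26 at an unadjusted p under 0.05.

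Bdnf, a neurotrophin of hippocampal neurons, was at 0.01 ± 0.31, and Rbfox3, which encodes the neuronal nuclear protein NeuN, at -0.09 ± 0.13. Mapt, the endogenous tau gene (chromosome 11, 104231390 to 104332090, plus strand), had 606 to 711 CPM in Old-Nano libraries, against 557 to 619 in old libraries, and 609.8 to 678 CPM in rTg4510-Nano libraries, against 556 to 669 in rTg4510 libraries. Its groups overlapped, and the shared log2 fold change of 0.08 ± 0.06 (-0.05 to 0.22) excludes a 1.5-fold difference. How far reads of the human tau transgene were counted under Mapt is not given in the sources used here.

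Other lists leaned downward together, against 7724 negative genes among all 15383 tested. All 16 myelin genes had a negative shared log2 fold change and 14 were negative in both models, with a median of -0.16 (-0.22 in old mice, -0.11 in rTg4510 mice), yet 0 were at an unadjusted p under 0.05. Mbp, a main protein of compact myelin, had 3945, 3117, 6347 and 5165 CPM in Old-Nano libraries, against 2809.9, 6981, 5931 and 4977 in old libraries, and 2012, 1817, 3608 and 3265 CPM in rTg4510-Nano libraries, against 1220.0, 4291 and 3351 in rTg4510 libraries. Its groups overlapped in both models, its shared log2 fold change was -0.15 ± 0.27, and the median of the list was -0.03 without rTg4510 F3 and -0.32 without rTg4510 F1. Of 75 cytosolic ribosomal protein genes tested, 74 were negative and 54 negative in both models, with a median of -0.14 (-0.21 in old mice, -0.06 in rTg4510 mice), and 0 were at an unadjusted p under 0.05. Without old M1 that median was -0.04. Rpl13, a member chosen after its values were seen, had 295, 288, 326 and 303 CPM in Old-Nano libraries, against 280.1, 316, 492 and 317 in old libraries, where the high value is old M1. Nuclear genes of the respiratory chain had a median of -0.07, with 1 of 46 lower at an unadjusted p under 0.05 (Ndufa1, -0.23 ± 0.10), and -0.0032 without old M1. Ndufa3, described above, is not on this list and not in its count. Members of 1 list vary together, so that a like sign over many of them is not many independent results.

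**Figure D5:**
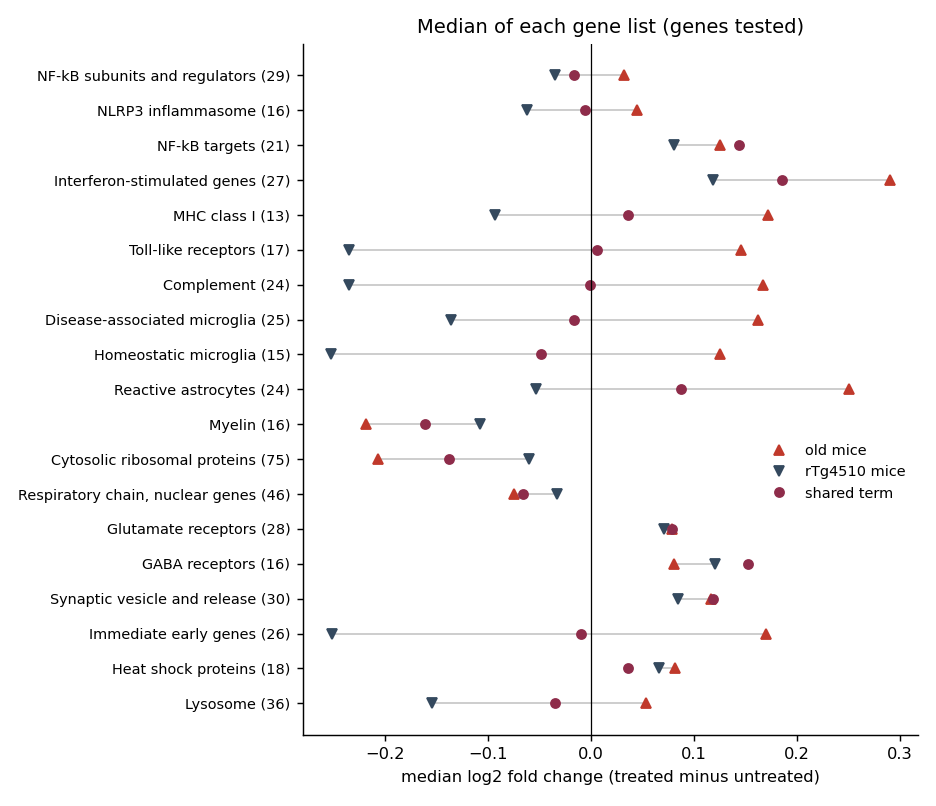
Median log2 fold change (treated minus untreated) of 19 gene lists in the shared term (circles), in old mice and in rTg4510 mice (triangles), with the number of genes tested in brackets. Most medians lie within 0.2 of 0, and for several immune lists the old mice lie above 0 and the rTg4510 mice below it.

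Stress genes differed singly, where 1.88% of all genes tested were higher and 3.24% lower at an unadjusted p under 0.05. Among heat shock genes 15 of 18 were positive, but the 2 at an unadjusted p under 0.05 were lower, Hspb1 and Cryab, a pair of small chaperones found in glia (-0.41 ± 0.15 and -0.38 ± 0.16). Among genes of the unfolded protein and integrated stress response 1 of 19 was higher, Asns, the asparagine synthetase (0.19 ± 0.09), and 2 were lower, Ddit3, which encodes the stress factor CHOP (-0.28 ± 0.10), and Pdia4, a folding enzyme of the endoplasmic reticulum (-0.29 ± 0.13). Ddit3 had 17.1 to 21.3 CPM in Old-Nano libraries, against 18.3 to 29.7 in old libraries, and 14.5 to 17.9 CPM in rTg4510-Nano libraries, against 18.4 to 21.3 in rTg4510 libraries. Its log2 fold change was -0.28 in each model. Of 19 glucocorticoid-responsive genes 1 was lower, Pdk4, a brake on pyruvate oxidation (-0.35 ± 0.11, with -0.34 in old mice and -0.37 in rTg4510 mice). Of 36 lysosomal genes 0 were higher and 3 were lower at an unadjusted p under 0.05, Tpp1, Npc2 and Ctsa, with values of -0.04, -0.02 and 0.03 in old mice, and -0.47, -0.60 and -0.41 in rTg4510 mice. Of 31 collagen and matrix genes 5 were lower, Col4a3, Col9a3, Col4a4, Col8a1 and Col18a1, with -0.70 to 0.22 in old mice and -4.53 to -1.04 in rTg4510 mice, and this count was 3 without any 1 of the 4 rTg4510-Nano libraries. Col18a1 lies outside the rule on named genes and is named to complete the count.

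The marker lists of other tissues show how the shared term combines unlike differences into 1 value. Of 26 choroid plexus markers 19 were lower at an unadjusted p under 0.05, with a median of -2.28, from 0.17 in old mice and -4.64 in rTg4510 mice. Of 27 hepatocyte markers tested 14 were lower, with a median of -2.53, from -3.31 in old mice and 0.58 in rTg4510 mice, and the count was 0 without old F3 and 5 without Old-Nano F1, Old-Nano F2 or Old-Nano M5. Pituitary markers counted 4 of 7 and hypothalamus markers 5 of 13 higher, with medians of 2.87 and 2.68. The pituitary median was 1.25 without rTg4510-Nano M3, and the hypothalamus median 0.58 without rTg4510-Nano M2. The single libraries in which these markers are high are those named above.

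S100a8, Il17re and Ido1, immune genes that the study also examined, were at low levels in these libraries. S100a8, a calcium-binding protein of neutrophils, was at 0.04 to 1.35 CPM in Old-Nano libraries, against 0.19 to 1.53 in old libraries, and at 0.14 to 0.86 CPM in rTg4510-Nano libraries, against 0.00 to 0.35 in rTg4510 libraries. Its shared log2 fold change of 0.27 ± 0.87 combines opposite signs, -0.54 in old mice and 1.71 in rTg4510 mice, and the groups overlapped in both. Il17re, a receptor of the interleukin 17 family, had 0.150 to 0.480 CPM in Old-Nano libraries, against 0.142 to 0.637 in old libraries, and 0.047 to 0.450 CPM in rTg4510-Nano libraries, against 1.19, 7.10 and 1.82 in rTg4510 libraries. It was lower in rTg4510 mice (log2 fold change -3.63, adjusted p = 0.0291, edgeR) and at -0.13 in old mice, and it follows a tissue score. Ido1, an enzyme of tryptophan breakdown, was at 5.97 CPM in old M1 and at or under 0.61 CPM in the other 14 libraries, and its shared log2 fold change was -1.07 ± 1.34.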

How the data were processed

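Whole-transcriptome libraries of hippocampal RNA (poly(A) selection, paired-end) had been trimmed with fastp, aligned with STAR to mm10 and summarised by the authors as raw counts per gene. Their versions, the counting tool and the strand setting were not stated. The counts were deposited by the authors as 1 table of 24411 genes and 24 columns, of which 1 pair is identical. Libraries used here had total counts of 19660389 to 27424344, with a median of 25389004. In the table, 27 gene names had turned into dates (0.292% to 0.357% of counts). They stayed in totals and tests and are not named.

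Counts were tested with edgeR 4.0.16 in R 4.3.3 (robust quasi-likelihood, TMM scaling, mean normalized count of at least 10, Benjamini-Hochberg threshold 0.05), with model and treatment as terms. A fit with their interaction gave the difference between models and each model's own difference. CPM are counts scaled to the TMM-adjusted library size, and scores use log2 CPM with a prior count of 2. Standard errors are the log2 fold change over the square root of F. DESeq2 1.42.0 and limma 3.58.1 (voom) were alternatives, beside other filters, scalings, covariates, all 6 groups of the series in 1 fit, and leaving out each library. Scripts were tested on simulated data. Plots used matplotlib 3.10.9 under Python 3.11.15. Gene positions are from GENCODE vM21.

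The groups, the comparison and the 62 gene lists were chosen with earlier results of these data known. The text names the targeted and studied genes, the 10 higher and 10 lower genes with the smallest p, up to 4 members of each list by p or its defining members, the 5 interaction genes with the smallest p, and up to 10 genes of the same direction at an unadjusted p under 0.05 in both models. Other genes are named to complete a count, and 1 of the 10 higher genes is not reported here. All other groups of the series were left out of the main comparison.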

Additional observations from a re-analysis of the deposited data

Results flagged for a closer look

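In groups of 4 libraries, a library was listed where its gap to the nearest other, over the range of the group, exceeded Dixon's 95% critical value on a log2 scale after adding 0.5 to CPM. Chance alone lists about 1 in 20 groups, and 14 of 189 combinations of a gene or score with a group were listed, 9 of 117 for genes and 5 for marker scores. Old M1 stood apart from the other old libraries in Ido1 (5.97 CPM), Sh3rf2 (12.5 CPM, against 0.00 to 0.239) and Ppp1r1b (407 CPM, against 35.8 to 45.4). The same library stood apart in the scores, as mean log2 CPM, of striatum (6.57, against 2.21 to 2.91), olfactory bulb (5.37, against 0.95 to 1.13) and lymphocytes (4.81, against -1.66 to -0.64). The lymphocyte score is the level of 1 gene, since only 1 of the 14 genes of that list passed the count filter. It does not describe the list as a whole. Old F3 was below the other old libraries in 2310057M21Rik (13 CPM, against 15.6 to 15.8) and above them in Cd274 (3.47 CPM, against 2.82 to 2.91).

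Old-Nano F1 was high in Mapt (711 CPM, against 606 to 621), was the only Old-Nano library with a count of A1bg (0.042 CPM), and was low in the CA pyramidal score (4.39, against 6.01 to 6.23). Old-Nano M2 was high in Aqp1 (0.851 CPM, against 0.113 to 0.160) and in the hepatocyte score (0.45, against -2.03 to -1.62). rTg4510-Nano M3 was the only rTg4510-Nano library with a count of Bhmt (0.188 CPM).

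The treatment difference itself differed between the models, by the test of the interaction (edgeR), for 22 genes. Among them, the interaction log2 fold change was -4.82 for Trpv4, -6.42 for F5, -3.30 for Ltc4s, -4.32 for Enpp2 and -7.03 for Kcne2.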

How the results depend on the processing

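The count of 0 genes higher in the shared term held in every setting, and 0 lower in every setting but the following: limma voom called 3 lower (Kcne2, Aqp1 and Slc4a5, all choroid plexus markers), and all 6 groups in one fit called 45 lower, all following a tissue score. The median log2 fold change of these 45 was 0.02 in old mice and -3.12 in rTg4510 mice. Their following of a score was thus nearly fixed in advance. The 22 interaction genes became 11 with sex as a covariate, 84 with DESeq2, 53 with all 6 groups, 5 to 54 over the leave-one-out fits and 1 without old F2 and F3, an alternative chosen after seeing the data. Pearson r between the models was -0.070 to 0.058 over the leave-one-out fits. Genes at an unadjusted p under 0.05 (787) were 425 without tissue-following genes, 419 without old M1, rTg4510-Nano M2 and M3, and 447 to 1182 over the leave-one-out fits. Of 546 values of 44 named genes, 512 kept their direction and side of the threshold, 10 became called and 24 reversed.

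Reversed values were near 0 for the most part. With tissue scores as covariates, Rela was at 0.15, S100a8 at -0.29, Cd68 at 0.27, Bdnf at -0.020, Gfap at 0.57, Aif1 at 0.039 and Ccdc125 at 0.45. Without the model block, S100a8 was at -0.12 and Bdnf at -0.00022. With voom, Ido1 was at 1.16, Bdnf at -0.12 and Ccdc125 at 0.053. With both identical columns, Bdnf was at -0.046. Without old M1, rTg4510-Nano M2 and M3, Nfkb1 was at -0.0057, Cd68 at 0.12, Aif1 at 0.068, Rbfox3 at 0.049 and Ccdc125 at 0.058. Without old F2 and F3, S100a8 was at -0.050 and Bdnf at -0.0013. Over the leave-one-out fits the ranges were -0.013 to 0.14 for Nfkb1, -0.071 to 0.040 for Rela, -0.11 to 0.58 for S100a8, -0.19 to 0.12 for Cd68, -0.20 to 0.17 for Bdnf, -0.21 to 0.18 for Gfap and -0.19 to 0.10 for Ccdc125. Causes were not tested.

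Whether replicate numbers shared between treated and untreated libraries pair them could not be settled. Deviations of same-numbered libraries correlated at 0.44, -0.16 and -0.24, too few pairs to decide, and the main comparison used no pairing. With a replicate block over the libraries with shared numbers, 0 genes were higher, 0 lower and 412 at an unadjusted p under 0.05, and Rela was at 0.037, Nlrp3 at -0.066, Bdnf at -0.0068 and Gfap at 0.071.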
